A study of Mus musculus with 18 samples.

Results

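The comparison described here is that of the gastrocnemius of mice whose muscle fibres lack Site-1 Protease, called S1P and encoded by Mbtps1, with that of control mice. It covers 9 RNA-seq libraries, taken by their titles, of 18 in the series, and the other 9 come from the soleus. Control gastrocnemius was replicates 1, 3, 4, 5 and 8, from mice floxed at Mbtps1 without Cre. Knockout gastrocnemius was replicates 2, 6, 7 and 9, from mice with the same floxed gene plus HSACre, a Cre recombinase whose promoter, that of human skeletal actin, works in muscle fibres and not in the other cells of a muscle. All mice ate standard chow, were 12 weeks old and were fasted for 4 h. The series text gives 4 mice per group and the titles give 5 controls and 4 knockouts, and the titles were followed. No group carries Cre without the floxed gene, so that Cre and loss of S1P cannot be told apart. The labels do not tie each library to a mouse of its own, and some may share a mouse, in which case p-values would tell only of the spread among these samples.

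S1P is a membrane-bound serine protease of the Golgi. It makes the first cut in the luminal part of transcription factors held in the membrane, such as the SREBPs and ATF6, which then leave for the nucleus. It also cuts other proteins of the secretory route, among them the precursor of the enzyme that tags lysosomal hydrolases. The gastrocnemius is a calf muscle of mainly fast fibres. A motor nerve excites such a fibre through acetylcholine receptors at the neuromuscular junction, sodium channels carry the action potential along the membrane, and calcium channels and ryanodine receptors then release calcium from the sarcoplasmic reticulum.

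Library totals ran from 39.0 to 55.8 M counts. The 15 defining genes of fast muscle, such as Myh4, Ckm and Acta1, summed to 283516 to 316883 CPM (counts scaled to a common library total, on scaled library sizes) in controls and 261454 to 316717 in knockouts. Mbtps1 itself (ENSMUSG00000031835, GRCm38 chr8:119508156-119558761) lay at 30.3, 32.3, 27.3, 27.6 and 27 CPM in controls 1, 3, 4, 5 and 8 and at 33.1, 31.8, 39 and 34 CPM in knockouts 2, 6, 7 and 9. The groups overlapped and the gene was not called (adjusted p = 0.0945 for a log2 fold change of 0.25, SE 0.08). The sources used here do not name the exon that the floxed allele removes. Whole-gene counts do not resolve a lost exon, so that this level does not check the labels and every direction below rests on them. Knockout 7 stood apart in macrophage markers, whose 12 genes summed to 281 CPM there against 148 to 154 CPM in the other knockouts and 109 to 156 CPM in controls. In fibroblast markers it had 5194 CPM, against 3416 to 3599 CPM in the other knockouts and 2525 to 4237 CPM in controls.

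Of 41388 genes listed, 16393 passed the filter on low counts and were tested, and 619 were called, that is, had an adjusted p under 0.05 in edgeR's quasi-likelihood test (3.78% of genes tested). Of these, 290 were higher (1.77%) and 329 lower (2.01%) in knockouts. Upper-quartile scaling gave 318 higher and 236 lower. Leaving out 1 library moved the count by a wide margin: to 261, 278, 206 and 354 without controls 1, 4, 5 and 8, to 211, 287 and 394 without knockouts 6, 7 and 9, and up to 1080 without knockout 2. The description below therefore turns on 163 genes called with all 9 libraries and in each of the 9 fits that left 1 out, with the same sign (0.994% of genes tested). They comprise 78 genes that rose (0.476%) and 85 that fell (0.519%). These are termed stable calls, and since all 10 fits share libraries, the term describes the data and is no independent support. In all 163 the values of the 2 groups did not overlap, which was so for 8.58% of genes tested. The choice of stable calls favours such separation, which is therefore no further support.

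The genes that rose and those that fell differed in their usual level. Stable calls that rose had a median of 0.896 RPKM (CPM per kilobase of gene length) in controls, and those that fell 14.2 RPKM, beside 1.92 RPKM over all genes tested. The median log2 fold change was 0.98 among those that rose, of which 38 of 78 at least doubled, and -0.58 among those that fell, of which 14 of 85 dropped at least 2-fold. Each knockout library showed the pattern. Relative to the mean of controls, the median log2 deviation of the genes that rose was 0.68, 0.88, 1.04 and 0.79 in knockouts 2, 6, 7 and 9, and that of the genes that fell was -0.48, -0.57, -0.73 and -0.49. These medians describe genes chosen for the contrast and are given without a test.

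**Figure D1:**
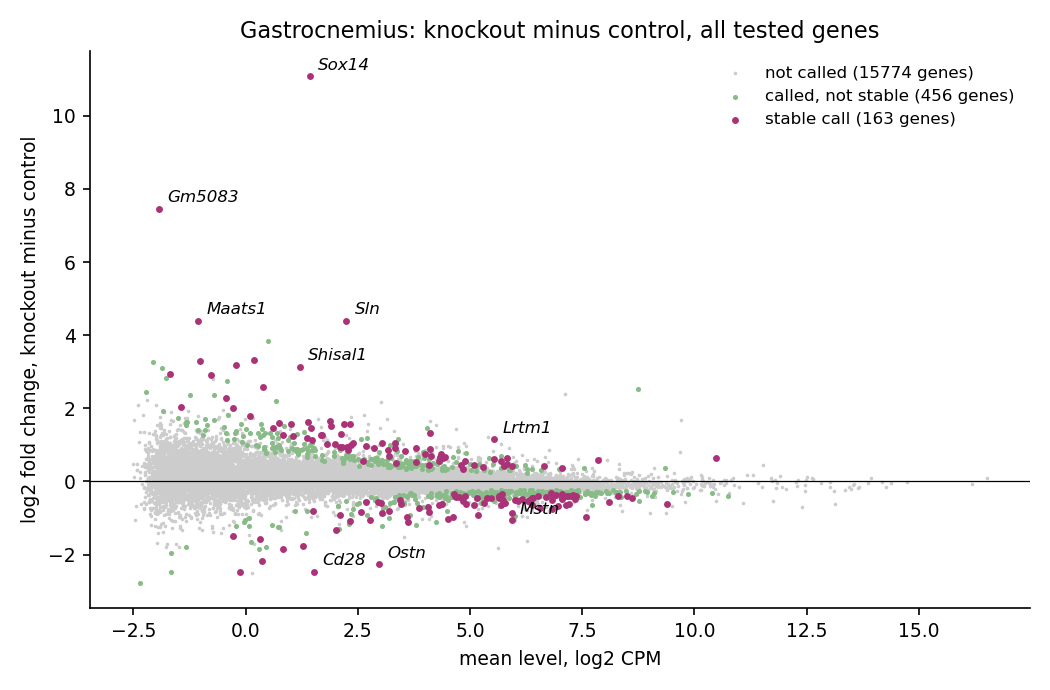
Log2 fold change (knockout minus control) against mean log2 CPM for the 16393 genes tested in the gastrocnemius, with 163 stable calls in dark and 456 other called genes in pale colour. Sox14 lies apart from all other genes at the top, at 11.09, and the genes that fell sit further to the right, at higher levels, than most of those that rose.

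Sox14, which encodes a transcription factor of the SoxB2 group known from the developing nervous system, was the gene with the highest fold change. It had 0 counts in each of the 5 controls and 233, 273, 313 and 328 counts in knockouts 2, 6, 7 and 9, or 4.94, 5.89, 7.04 and 5.73 CPM. With 3 counts assumed over all controls together as a floor, this was at least 431-fold higher (adjusted p = 7.72e-07). Its spread among knockouts was small beside the gap to the controls. In the soleus it had 1 count over 5 controls and 816 counts over 4 knockouts. The gene lies at GRCm38 chr9:99874106-99876170 on the minus strand. Within 500 kb of it the annotation places 13 other genes, of which 4 were tested and none was called: Mras (log2 fold change -0.15, adjusted p = 0.574), Armc8 (-0.18, 0.143), Dbr1 (-0.12, 0.693) and Dzip1l (0.12, 0.790). Among the untested neighbours, A4gnt and Cldn18 had counts in gastrocnemius knockouts alone, Cldn18 only 2, both in knockout 7. A4gnt, a glycosyltransferase gene 252 kb away, had 0 counts in all controls and 6, 8, 18 and 16 counts in knockouts, at least 18.04-fold higher by the same floor. In the soleus it had 3 counts in controls and 17 in knockouts. It was below the filter, so that no p is given, and it was chosen after its values were seen. How often untested genes elsewhere show this pattern was not counted.

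The promoter of Sox14 is shown because the gene goes from no count to over 200, those of 4 nicotinic acetylcholine receptor subunit genes because all 4 rose, and that of Musk, whose product gathers such receptors in muscle, because it fell. Each run is 300 bases, 250 before to 50 after the start annotated by RefSeq (GRCm38.p6), on the strand of the gene. RefSeq held an entry for all 6. For Chrng and Chrna9 that start lies inside the gene as counted here, which begins at chr1:87204657 and chr5:65934921. Capitals mark CAGCTG, a form of the E-box CANNTG that factors of the MyoD family bind. It reads the same on both strands, and no match overlapped another.
Sox14, chr9:99876121-99876420, minus strand: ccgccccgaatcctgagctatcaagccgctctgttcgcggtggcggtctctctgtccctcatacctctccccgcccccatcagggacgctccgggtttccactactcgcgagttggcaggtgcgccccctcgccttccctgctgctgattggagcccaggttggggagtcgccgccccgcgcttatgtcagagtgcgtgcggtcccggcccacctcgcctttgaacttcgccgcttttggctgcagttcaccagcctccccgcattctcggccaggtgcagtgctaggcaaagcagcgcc
Chrna1, chr2:73580289-73580588, minus strand: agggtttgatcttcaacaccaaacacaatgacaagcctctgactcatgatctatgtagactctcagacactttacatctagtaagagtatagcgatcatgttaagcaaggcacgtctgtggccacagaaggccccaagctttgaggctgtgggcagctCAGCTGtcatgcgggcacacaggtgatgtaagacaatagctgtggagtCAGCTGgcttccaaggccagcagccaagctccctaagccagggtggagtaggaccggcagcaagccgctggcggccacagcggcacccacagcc
Chrng, chr1:87205561-87205860, plus strand: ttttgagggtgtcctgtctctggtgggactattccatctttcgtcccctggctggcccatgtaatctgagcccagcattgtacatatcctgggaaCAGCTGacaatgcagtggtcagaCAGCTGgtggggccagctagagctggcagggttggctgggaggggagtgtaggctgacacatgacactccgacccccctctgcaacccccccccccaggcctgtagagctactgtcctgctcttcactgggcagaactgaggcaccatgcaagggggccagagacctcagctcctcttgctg
Chrnb1, chr11:69795888-69796187, minus strand: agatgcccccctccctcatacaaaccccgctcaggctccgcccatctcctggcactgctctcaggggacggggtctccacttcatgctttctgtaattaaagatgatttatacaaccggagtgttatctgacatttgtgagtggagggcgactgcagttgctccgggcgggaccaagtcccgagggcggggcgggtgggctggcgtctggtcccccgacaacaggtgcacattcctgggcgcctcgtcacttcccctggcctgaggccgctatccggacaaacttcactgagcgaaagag
Chrna9, chr5:65966874-65967173, plus strand: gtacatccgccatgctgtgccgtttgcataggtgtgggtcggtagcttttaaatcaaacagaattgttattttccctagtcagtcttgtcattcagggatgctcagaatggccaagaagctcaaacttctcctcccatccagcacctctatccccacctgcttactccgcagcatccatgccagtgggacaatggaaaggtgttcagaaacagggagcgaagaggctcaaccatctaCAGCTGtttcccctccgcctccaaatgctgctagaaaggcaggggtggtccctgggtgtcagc
Musk, chr4:58285712-58286011, plus strand: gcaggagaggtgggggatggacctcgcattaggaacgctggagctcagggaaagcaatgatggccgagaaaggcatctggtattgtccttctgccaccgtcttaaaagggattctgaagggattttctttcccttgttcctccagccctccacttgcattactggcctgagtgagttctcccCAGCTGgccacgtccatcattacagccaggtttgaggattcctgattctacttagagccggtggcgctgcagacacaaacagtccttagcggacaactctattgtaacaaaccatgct
CAGCTG occurs 2 times in the window of Chrna1 (starting 92 and 44 bases before the start) and Chrng (155 and 132 bases before), 1 time in those of Chrna9 (13 bases before) and Musk (68 bases before), and 0 times in those of Sox14 and Chrnb1. Among all 32851 promoter windows that RefSeq gave, 16.3% hold it at least 1 time and 1.90% at least 2 times, and among those of tested genes the shares are 16.1% and 1.62%. The motif was in 17.8% of the 90 windows of stable genes that rose and in 16.7% of the 96 of those that fell. It was there at least 2 times in 4 (4.44%) and 2 (2.08%) of these windows. The wider form CANNTG occurs 2 times in the window of Sox14 and 3 times in that of Chrnb1, and 65.0% of windows of tested genes hold it. A match describes letters and is not a measured binding site.

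Among the ligand-gated channels, 4 nicotinic acetylcholine receptor subunit genes rose. Over all protein-coding genes tested 4.31% were called and 1.14% were stable, the shares to set beside the classes of genes below, whose calls were counted without a test. Of 51 tested genes of ligand-gated and junction channels and aquaporins, 5 were called higher and 1 lower (4 to 5 called with 1 library left out), and 4 were stable, these 4 subunits. The class median was 0.002, beside 0.02 over all genes tested. Chrna1, the subunit that binds acetylcholine in muscle, lay at 10.2, 8.84, 9.78, 10.7 and 12.2 CPM in controls and 22.7, 23.3, 39.3 and 18.5 CPM in knockouts (adjusted p = 0.00861 for a log2 fold change of 1.32, SE 0.20). Every knockout was above every control, and knockout 7 was the highest. Chrnb1, the beta subunit, lay at 25, 22.4, 25.3, 23.1 and 26.9 CPM in controls and 31.6, 32.9, 45.4 and 34.7 CPM in knockouts (adjusted p = 0.0087 for a log2 fold change of 0.56, SE 0.10). Its groups also stayed apart, with knockout 7 again on top.

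Chrng, the gamma subunit of the fetal receptor, and Chrna9, a subunit best known from hair cells of the inner ear, were below the level at which genes were named by rule and were chosen after their values were seen. Chrng lay at 0.216, 0.396, 0.379, 0.389 and 0.276 CPM in controls and 0.997, 1.34, 2.16 and 0.838 CPM in knockouts (adjusted p = 0.00601 for a log2 fold change of 2.01, SE 0.34). Chrna9 lay at 0.059, 0.149, 0.0542, 0.146 and 0.0394 CPM in controls and 1.34, 0.582, 1.3 and 0.332 CPM in knockouts (adjusted p = 0.00472 for a log2 fold change of 3.30, SE 0.53). Both stayed apart at low levels, and for Chrna9 it was knockouts 2 and 7 that were highest. Without knockout 7 the log2 fold changes were 1.05 for Chrna1 and 1.68 for Chrng. The remaining subunits of the muscle receptor, chosen for completeness after values were seen, did not pass: the delta subunit Chrnd (log2 fold change -0.05, adjusted p = 0.934) and the epsilon subunit Chrne, which replaces gamma in the adult receptor (log2 fold change 0.01, adjusted p = 0.986), both overlapped between groups. Ache, the enzyme that breaks down acetylcholine at the junction, rose from 42.7 ± 3.77 to 63 ± 6.57 CPM (log2 fold change 0.56, adjusted p = 0.0036). Musk, the receptor kinase that organises the receptors under the nerve, went the other way, from 62.7, 89.2, 86.6, 70.5 and 76.7 CPM in controls to 51.2, 38.4, 34.8 and 43.8 CPM in knockouts (adjusted p = 0.00429 for a log2 fold change of -0.87, SE 0.13), with every knockout below every control.

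**Figure D2:**
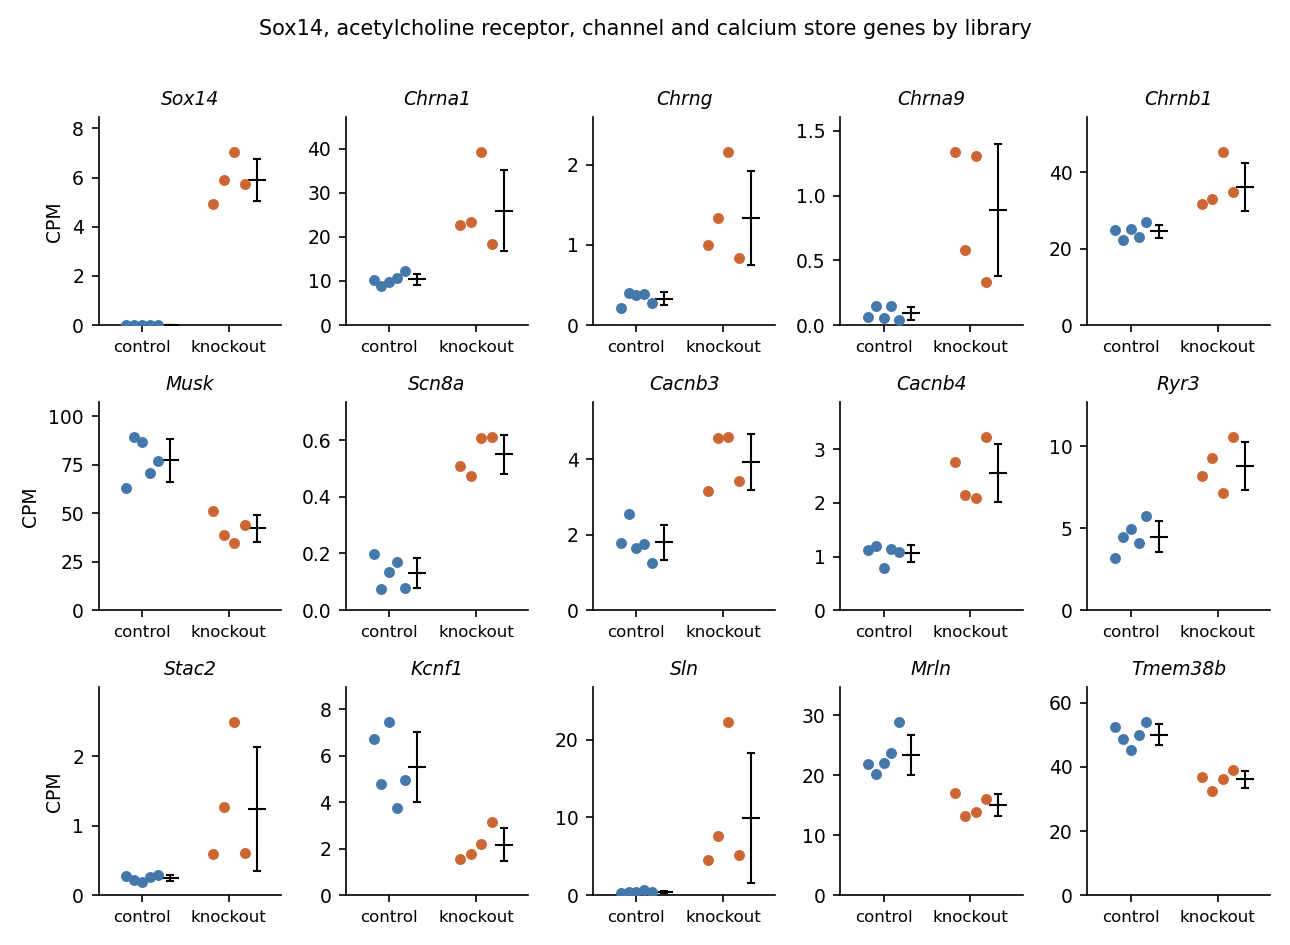
Level in CPM of 15 genes in each gastrocnemius library, controls in blue and knockouts in orange, with the mean and SD (n = 5 and n = 4) as a black mark beside the points. In all 15 panels the groups do not overlap, and knockout 7, the third of the orange points from the left, is the highest for Sox14, Chrna1, Chrng, Chrnb1, Cacnb3, Stac2 and Sln.

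Among voltage-gated and intracellular cation channels the genes that stayed called were minor isoforms that rose, while the main adult sodium channel genes were slightly lower. Of 94 tested genes of sodium, calcium, chloride and cation channels, 5 were called higher and 3 lower (4 to 11 called with 1 library left out). The 4 stable calls, Cacnb4, Cacnb3, Ryr3 and Scn8a, all rose. Cacnb4, an auxiliary beta subunit of voltage-gated calcium channels found mainly in neurons, lay at 1.12, 1.19, 0.786, 1.14 and 1.08 CPM in controls and 2.76, 2.16, 2.09 and 3.23 CPM in knockouts (adjusted p = 0.00472 for a log2 fold change of 1.26, SE 0.20). Cacnb3, another beta subunit, lay at 1.77, 2.55, 1.65, 1.75 and 1.26 CPM in controls and 3.16, 4.55, 4.59 and 3.42 CPM in knockouts (adjusted p = 0.00832 for a log2 fold change of 1.13, SE 0.20). For both, the lowest knockout was above the highest control.

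Ryr3, a ryanodine receptor isoform that adult fast muscle holds little of, lay at 3.2, 4.48, 4.93, 4.06 and 5.71 CPM in controls and 8.14, 9.26, 7.13 and 10.5 CPM in knockouts (adjusted p = 0.00564 for a log2 fold change of 0.97, SE 0.16). It did not pass in the fit of all 18 libraries (adjusted p = 0.0561), and the more abundant gene Aven overlaps it on the other strand, whose reads cannot be told apart if strand was not used. Scn8a, a sodium channel of neurons, was chosen after its values were seen and rose from 0.131 ± 0.0544 to 0.551 ± 0.0692 CPM (log2 fold change 2.05, adjusted p = 0.0129). The muscle sodium channel gene Scn4a, at 727 to 840.0 CPM in controls and 572 to 681 CPM in knockouts (log2 fold change -0.29, adjusted p = 0.0418), and its beta subunit gene Scn4b, at 414 to 485 and 321 to 382 CPM (log2 fold change -0.35, adjusted p = 0.0188), were called lower. Neither call was stable. That of Scn4a ended on leaving out any of controls 1, 4, 5 and 8 or knockouts 6, 7 and 9 (0.0788 to 0.107) and with upper-quartile scaling (0.063). For Scn4b the same happened on leaving out control 4, control 5 or knockout 6 (0.0505 to 0.0543). Stac2, which belongs to the family of adaptors that bind the voltage-gated calcium channel of muscle, rose from 0.25 ± 0.0429 to 1.24 ± 0.893 CPM (log2 fold change 2.28, adjusted p = 0.0114), with knockout 7 highest, a log2 fold change of 1.70 without it, and no call with limma voom (adjusted p = 0.0594). It was chosen after its values were seen, and Stac3 of the same family was called lower without a stable call.

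Potassium channel subunits had 1 stable call, and it was lower. Of 55 tested, 1 was called higher and 4 lower (1 to 10 called with 1 library left out), and the class median was 0.03. The gene was Kcnf1, a subunit that forms no channel alone and modifies other Kv channels, which lay at 6.7, 4.8, 7.45, 3.75 and 4.94 CPM in controls and 1.55, 1.77, 2.2 and 3.16 CPM in knockouts (adjusted p = 0.0104 for a log2 fold change of -1.34, SE 0.24). The groups did not overlap, but the lowest control, number 5, lay close to the highest knockout, number 9.

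The small peptides that hold back the calcium pump of the sarcoplasmic reticulum moved in opposite directions. Sln (sarcolipin), abundant in slow, atrial and immature muscle, lay at 0.334, 0.47, 0.434, 0.681 and 0.433 CPM in controls and 4.58, 7.64, 22.3 and 5.19 CPM in knockouts (adjusted p = 0.00852 for a log2 fold change of 4.40, SE 0.58). Knockout 7 was far above the rest, and without it the log2 fold change was 3.63 (adjusted p = 1.12e-06). Mrln (myoregulin), a peptide of adult skeletal muscle, lay at 21.9, 20.2, 22.1, 23.7 and 28.9 CPM in controls and 17.1, 13.3, 13.8 and 16.1 CPM in knockouts (adjusted p = 0.00732 for a log2 fold change of -0.63, SE 0.11). Every knockout was below every control. Tmem38b, an intracellular cation channel of the calcium store, fell from 50.03 ± 3.33 to 36.2 ± 2.64 CPM (log2 fold change -0.47, adjusted p = 0.00423). Calm3, a calmodulin gene chosen after its values were seen, fell from 404 ± 23.5 to 304 ± 12.7 CPM (log2 fold change -0.41, adjusted p = 0.00433). Mylk2, the calmodulin-dependent kinase of the myosin light chain in skeletal muscle, fell from 798 ± 43.8 to 520.2 ± 72.1 CPM (log2 fold change -0.62, adjusted p = 0.00234).

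Among 81 tested genes of ion pumps, ABC transporters and pump regulators, 6 were called higher and 2 lower (4 to 8 called with 1 library left out), with a median of 0.003. Besides Sln and Mrln, the stable ones were Atp1b4 and Abcb4. Atp1b4, a relative of the sodium pump's beta subunits that muscle keeps at the nuclear envelope, rose from 2.63 ± 0.461 to 6.41 ± 1.78 CPM (adjusted p = 0.00364 for a log2 fold change of 1.29, SE 0.19). Abcb4, a phospholipid transporter of cell membranes, fell from 152 ± 12.6 to 110.0 ± 10.6 CPM (adjusted p = 0.00788 for a log2 fold change of -0.46, SE 0.08).

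Solute carriers were called in both directions, beside 290 higher and 329 lower over all genes. Of 258 tested, 8 were called higher and 13 lower (8 to 32 called with 1 library left out), 2 and 5 of them stable, and the class median was -0.02. Slc2a3, the glucose transporter GLUT3, lay at 9.14, 10.7, 8.16, 7.73 and 8.17 CPM in controls and 5.92, 3.34, 2.86 and 4.73 CPM in knockouts (adjusted p = 0.0104 for a log2 fold change of -1.06, SE 0.19). Slc38a4, a sodium-coupled transporter of neutral amino acids, lay at 148, 146, 157, 147 and 149 CPM in controls and 115, 89.8, 70.6 and 96.7 CPM in knockouts (adjusted p = 0.00533 for a log2 fold change of -0.68, SE 0.11). In both, knockouts lay below controls without overlap.

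Slc40a1 (ferroportin), which exports iron, fell from 21 ± 1.39 to 11.9 ± 2.72 CPM (log2 fold change -0.82, adjusted p = 0.00598). Tfrc, the transferrin receptor, which is no carrier of this class and was chosen after its values were seen, fell from 129 ± 8.65 to 97.2 ± 6.91 CPM (log2 fold change -0.41, adjusted p = 0.00732). Slc16a10, a transporter of aromatic amino acids named in the same way, fell from 61.4 ± 4.66 to 42.9 ± 2.95 CPM (log2 fold change -0.52, adjusted p = 0.00277). Slc4a10, a bicarbonate transporter at about 1 CPM in controls, fell from 1.11 ± 0.11 to 0.396 ± 0.132 CPM (log2 fold change -1.48, adjusted p = 0.0124) and missed the threshold in the fit of all 18 libraries (adjusted p = 0.0727). The carriers that rose were Slc43a2, which moves branched-chain amino acids, from 29.5 ± 2.21 to 40.1 ± 4.3 CPM (log2 fold change 0.44, adjusted p = 0.0105), and Slc47a1, an exporter of organic cations, from 15.9 ± 2.63 to 25.1 ± 2.35 CPM (log2 fold change 0.66, adjusted p = 0.00598). Xpr1, the phosphate exporter, chosen after its values were seen, fell from 168 ± 14.6 to 108 ± 11.6 CPM (log2 fold change -0.64, adjusted p = 0.00168).

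Of 283 tested genes of the Tmem, tetraspanin, Lrrc and Shisa families, 8 were called higher and 9 lower (6 to 21 called with 1 library left out), 2 and 4 of them stable. Shisal1, a single-pass membrane protein related to the Shisa family, lay at 0.59, 0.149, 0.759, 0.535 and 0.472 CPM in controls and 2.08, 3.49, 9.13 and 3.04 CPM in knockouts (adjusted p = 0.0117 for a log2 fold change of 3.14, SE 0.50). Knockout 7 was the highest, and without it the log2 fold change was 2.51 (adjusted p = 0.00147). Of 2 tetraspanins, which gather other proteins into membrane patches, Tspan13 rose from 17.1 ± 1.39 to 27.1 ± 3.29 CPM (log2 fold change 0.67, adjusted p = 0.00192) and Tspan8 fell from 31.6 ± 3.26 to 16.1 ± 2.31 CPM (log2 fold change -0.97, adjusted p = 0.000672). The call of Tspan8 did not hold in the fit of all 18 libraries (adjusted p = 0.112). Lrrc20 fell from 163 ± 7.57 to 124 ± 9.89 CPM (log2 fold change -0.39, adjusted p = 0.00747). Lrtm1, a leucine-rich repeat membrane protein chosen after its values were seen, lay at 40.5, 27.3, 25.3, 31.4 and 25.9 CPM in controls and 53.1, 72, 78.1 and 65.6 CPM in knockouts (adjusted p = 0.00368 for a log2 fold change of 1.16, SE 0.15), and the groups did not overlap.

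Integrin chains moved in opposite directions. Among 139 tested genes of cell adhesion and the membrane scaffold, 4 were called higher and 7 lower (3 to 23 called with 1 library left out), with a median of 0.11. Itgav, the alpha chain of receptors for vitronectin and for latent TGF-beta, lay at 44.6, 48.5, 44.6, 45.5 and 49.8 CPM in controls and 53.2, 64.9, 69.1 and 62.9 CPM in knockouts (adjusted p = 0.00984 for a log2 fold change of 0.42, SE 0.08). Itga4, the alpha chain of the receptor for VCAM-1 and fibronectin, lay at 13.9, 17.8, 11.7, 16 and 17.3 CPM in controls and 8.4, 7.27, 7.58 and 7.77 CPM in knockouts (adjusted p = 0.00118 for a log2 fold change of -0.98, SE 0.12). Cadm1, an immunoglobulin-type adhesion protein, fell from 11.4 ± 1.17 to 6.43 ± 0.847 CPM (log2 fold change -0.82, adjusted p = 0.0021). Ank2 (ankyrin-B), which ties channels and transporters to the membrane skeleton and was chosen after its values were seen, rose from 87.8 ± 5.2 to 117 ± 6.02 CPM (log2 fold change 0.41, adjusted p = 0.00433).

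Genes named for the synapse gave 3 stable calls, a pair of them higher. Of 92 tested genes of synaptic vesicles, synaptic scaffolds and exocytosis, 3 were called higher and 2 lower (3 to 7 called with 1 library left out), and 3.26% were stable. Ppfia4, a liprin that organises sites of vesicle release, rose from 1.33 ± 0.155 to 4.11 ± 1.37 CPM (adjusted p = 0.00155 for a log2 fold change of 1.62, SE 0.21), and Dlg4, the scaffold PSD-95, rose from 6.55 ± 1.41 to 12 ± 1.81 CPM (log2 fold change 0.87, adjusted p = 0.00899). Snph (syntaphilin), which anchors mitochondria to microtubules in axons, fell from 3.53 ± 0.635 to 1.03 ± 0.345 CPM (log2 fold change -1.78, adjusted p = 0.00159). Markers of Schwann cells, which accompany the nerve, had a log2 fold change above 0 in 1 of 10, with 0 called.

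**Figure D3:**
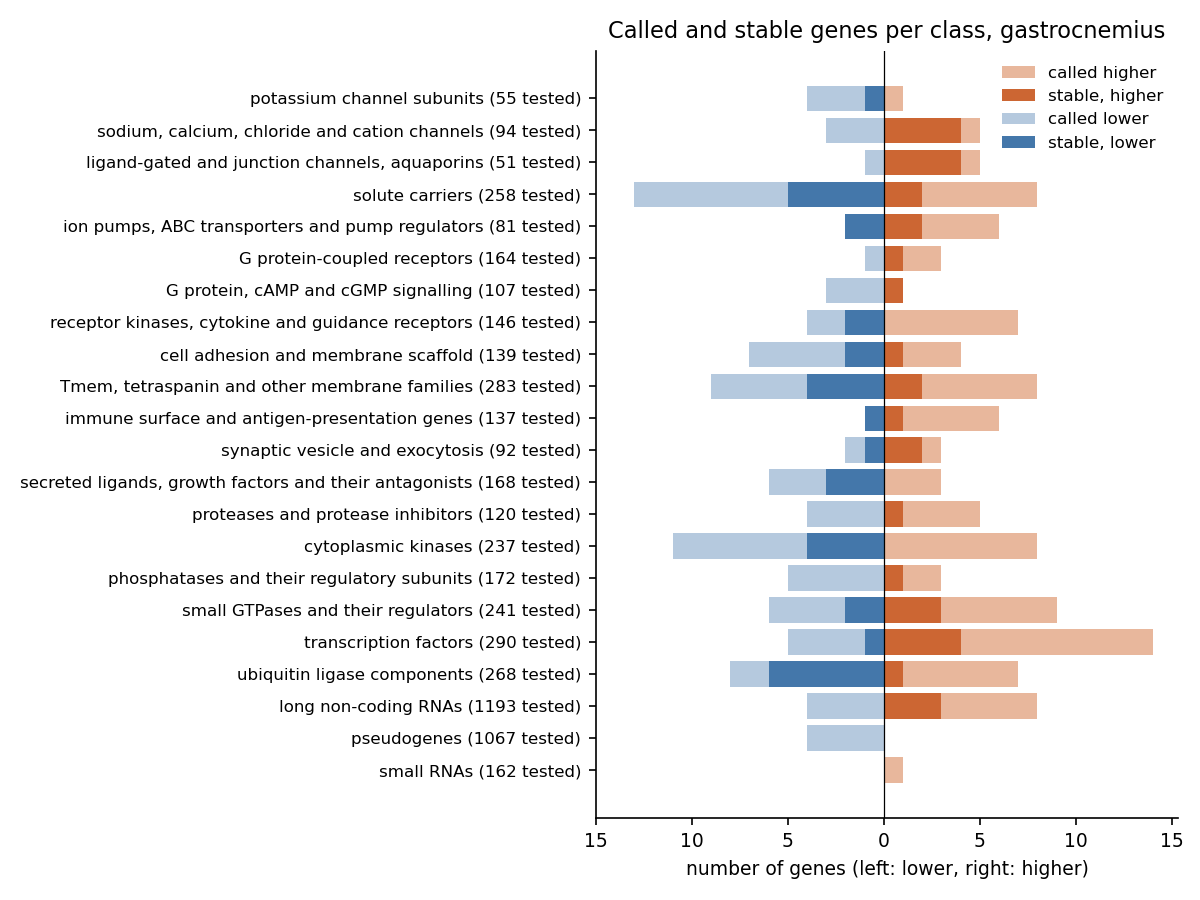
Number of genes called higher (right) and lower (left) in knockouts for each class, in pale colour, with stable calls in dark colour and the number tested beside the name. Channel classes at the top have stable calls to the right, except for potassium channels, while solute carriers and ubiquitin ligase components have most stable calls to the left.

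Stable calls among receptors and their signalling were Ccr2 and Rgs2, which rose, and Musk and Unc5a, which fell. Of 164 tested G protein-coupled receptors, 3 were called higher and 1 lower (2 to 8 called with 1 library left out), and the stable one (0.61%) was Ccr2, a chemokine receptor of monocytes, which rose from 2.67 ± 0.256 to 5.45 ± 1.85 CPM (log2 fold change 1.03, adjusted p = 0.0132), with no call in the fit of all 18 libraries (adjusted p = 0.118). Of 107 genes of G protein, cAMP and cGMP signalling, 1 was called higher and 3 lower (1 to 9 called with 1 library left out), and the stable one (0.935%) was Rgs2, which ends signalling through Gq. Rgs2 lay at 3.05, 2.77, 2.63, 2.8 and 1.97 CPM in controls and 4.9, 9.13, 8.66 and 8.7 CPM in knockouts (adjusted p = 0.00118 for a log2 fold change of 1.57, SE 0.18). Knockout 2 was below the other knockouts and still above every control. Of 146 receptor kinases, cytokine receptors and guidance receptors, 7 were called higher and 4 lower (2 to 26 called with 1 library left out), but none of those called higher was stable. Beside Musk, the stable one was Unc5a, a receptor for netrin, which fell from 29.2 ± 1.3 to 21.7 ± 1.78 CPM (log2 fold change -0.43, adjusted p = 0.00729).

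Cytoplasmic kinases that stayed called were lower in knockouts. Of 237 tested, 125 had a positive log2 fold change, and 8 were called higher and 11 lower (6 to 23 called with 1 library left out). The 4 stable calls (1.69%, beside 1.14% over protein-coding genes) were all lower. They were Mylk2, the ribosomal S6 kinases Rps6ka2 and Rps6ka3, which act downstream of ERK, and Wnk2, of a family that sets chloride transport. Rps6ka2 fell from 139 ± 12.1 to 82.3 ± 13.8 CPM (log2 fold change -0.75, adjusted p = 0.00296), Rps6ka3, outside the naming rule, from 74.1 ± 3.12 to 52.2 ± 3.65 CPM (log2 fold change -0.51, adjusted p = 0.00165), and Wnk2 from 319 ± 18 to 216 ± 40.8 CPM (log2 fold change -0.56, adjusted p = 0.0185). Small GTPases and their regulators gave 9 higher and 6 lower calls among 241 tested (6 to 27 called with 1 library left out). Tiam1, an exchange factor for Rac, lay at 10.2, 11.5, 14.5, 11.6 and 14.2 CPM in controls and 24.6, 24, 21.9 and 22.1 CPM in knockouts (adjusted p = 0.000975 for a log2 fold change of 0.90, SE 0.10). The guanine nucleotide exchange factors Arhgef17 (log2 fold change 0.38, adjusted p = 0.00799) and Arhgef2 (log2 fold change 0.33, adjusted p = 0.0101) rose by less, while Fgd4, an exchange factor for Cdc42 (log2 fold change -0.63, adjusted p = 0.00152), and the GTPase Rab12 (log2 fold change -0.52, adjusted p = 0.00296) fell. Of 172 phosphatase genes, 3 were called higher and 5 lower (1 to 14 called with 1 library left out), or 4.65% beside 4.31% over protein-coding genes. The only stable one was Ptprc, a marker of leukocytes described below.

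The 3 stable calls among genes of secreted ligands and their antagonists, Ostn, Mstn and Egf, all fell. Of 168 tested ligands, growth factors and antagonists, 3 were called higher and 6 lower (4 to 17 called with 1 library left out). The stable share was 1.79%, beside 1.14% over protein-coding genes. Log2 fold changes were positive in 101 of the 168, with a median of 0.08. Ostn (musclin), a peptide that muscle releases and that blocks the clearance of natriuretic peptides, lay at 12.3, 10.5, 8.51, 17.4 and 11.7 CPM in controls and 2.74, 2.78, 1.51 and 2.93 CPM in knockouts (adjusted p = 0.00136 for a log2 fold change of -2.27, SE 0.24). Mstn (myostatin), which holds back muscle growth, lay at 70.4, 82.3, 72.1, 71.4 and 98.5 CPM in controls and 43.7, 39.2, 25.3 and 44.3 CPM in knockouts (adjusted p = 0.0115 for a log2 fold change of -1.05, SE 0.17). In both the groups were well apart. The call of Mstn did not hold in the fit of all 18 libraries (adjusted p = 0.0937). Egf, the epidermal growth factor, whose precursor spans the membrane, lay at 29.8, 29.4, 29.9, 29 and 29 CPM in controls and 18.2, 13.8, 11.4 and 14.1 CPM in knockouts (adjusted p = 0.000605 for a log2 fold change of -1.03, SE 0.11).

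Fgfbp1, a carrier of fibroblast growth factors, fell from 1.92 ± 0.51 to 0.42 ± 0.224 CPM (log2 fold change -2.18, adjusted p = 0.0036), and Amy1, an amylase, from 16.2 ± 3.17 to 7.48 ± 1.09 CPM (log2 fold change -1.11, adjusted p = 0.00282). Reads of Amy1 may be shared with other amylase genes, and Rnpc3 overlaps it on the same strand. Of 120 proteases and protease inhibitors, 5 were called higher and 4 lower (1 to 21 called with 1 library left out), and the stable one was Serpinb1a, an inhibitor of neutrophil proteases, which rose from 1.51 ± 0.272 to 4.18 ± 1.61 CPM (log2 fold change 1.47, adjusted p = 0.00709). Col19a1, a minor collagen chosen after its values were seen, rose from 3.56 ± 0.522 to 6.44 ± 1.33 CPM (log2 fold change 0.85, adjusted p = 0.0100), with no call in the fit of all 18 libraries (adjusted p = 0.588). Cgref1, a secreted calcium-binding protein chosen likewise, rose from 1.05 ± 0.299 to 3.11 ± 0.761 CPM (log2 fold change 1.57, adjusted p = 0.00295).

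**Figure D4:**
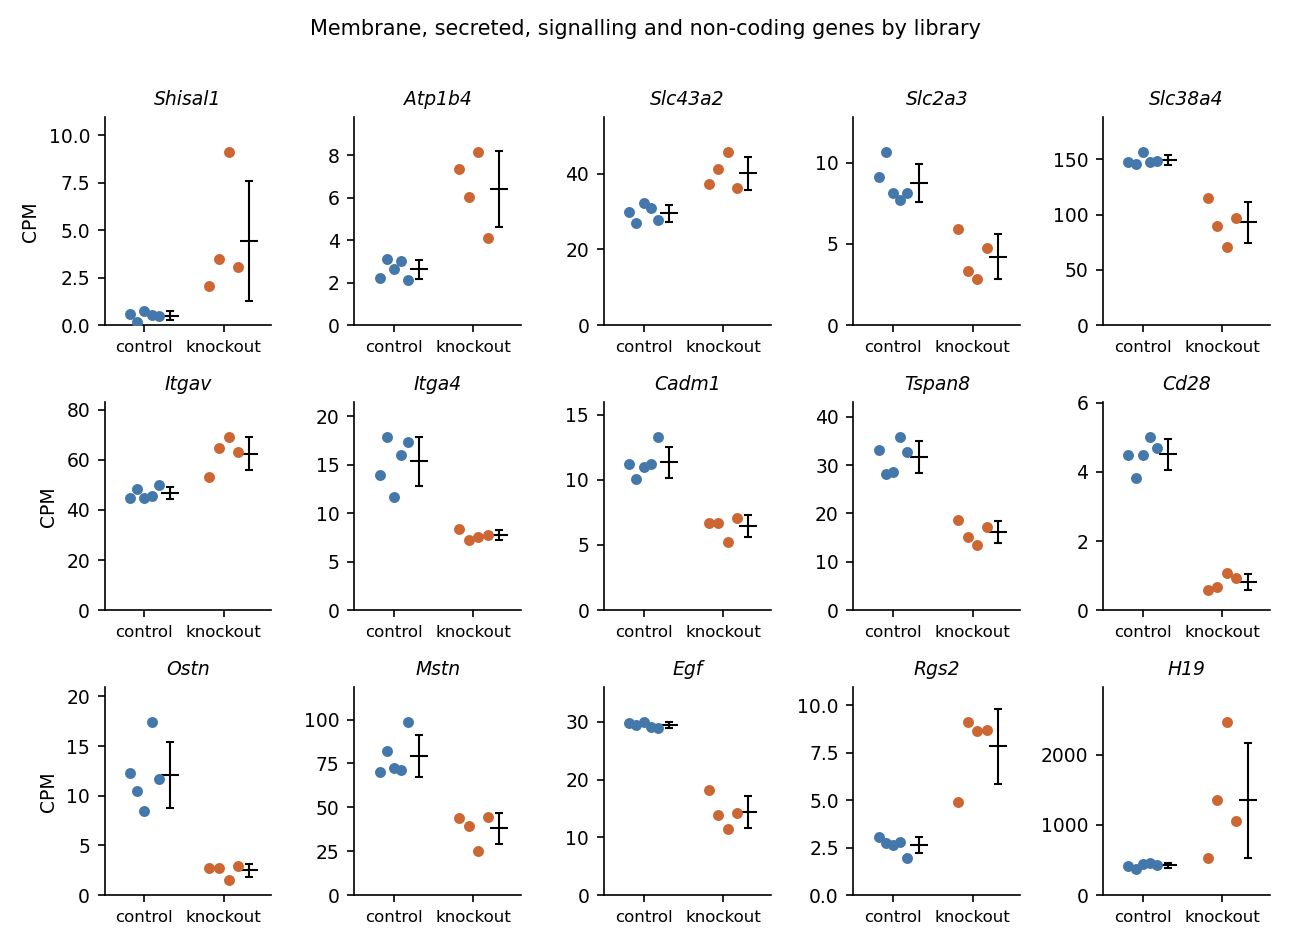
Level in CPM of 15 membrane, secreted, signalling and non-coding genes in each gastrocnemius library, controls in blue and knockouts in orange, with the mean and SD (n = 5 and n = 4) as a black mark. The groups do not overlap in any panel, and H19, which was not called, has the widest spread among knockouts, from 523 to 2466 CPM.

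Of the stable calls among transcription factors 4 rose, namely Sox14, E2f2, Hoxc8 and Myod1, and 1 fell, Rxrg, described below. These were 1.72% of the class, beside 1.14% over protein-coding genes. Of 290 tested, 14 were called higher and 5 lower (6 to 38 called with 1 library left out), with a median of 0.05. E2f2, a cell cycle factor, lay at 2.34, 2.35, 2.95, 2.12 and 2.38 CPM in controls and 4.01, 7.1, 12 and 5.73 CPM in knockouts (adjusted p = 0.0101 for a log2 fold change of 1.57, SE 0.26). Hoxc8, a homeobox gene of body position, rose from 1.93 ± 0.601 to 4.64 ± 0.599 CPM (log2 fold change 1.26, adjusted p = 0.00389), though Hoxc5 overlaps it on the same strand. Alx4, a homeobox gene of limb and skull development that the patterns of this class do not cover, rose from 0.852 ± 0.178 to 2.57 ± 0.369 CPM (log2 fold change 1.58, adjusted p = 0.00169). The abundant Ext2 overlaps Alx4 on the other strand. Myod1, the factor that commits cells to muscle, was the fourth by fold change of the class's stable calls that rose and so fell outside the naming rule. It rose from 16.8 ± 2.82 to 26.3 ± 2.6 CPM (log2 fold change 0.64, adjusted p = 0.0105), with no call in the fit of all 18 libraries (adjusted p = 0.354).

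Mdfi, an inhibitor of the MyoD family, lay at 0.118, 0.223, 0.325, 0.17 and 0.256 CPM in controls and 0.827, 2.78, 4.14 and 0.943 CPM in knockouts (adjusted p = 0.00612 for a log2 fold change of 3.31, SE 0.51). Runx1 was chosen after its values were seen and rose from 6.81 ± 0.95 to 15.1 ± 5.04 CPM (log2 fold change 1.15, adjusted p = 0.0161). The call failed when control 5 (0.0534) or knockout 7 (0.0545) was left out, and with all 18 libraries fitted (0.0866). Cbfb, the partner subunit of Runx proteins, named likewise, fell from 99.5 ± 8.41 to 64 ± 1.83 CPM (log2 fold change -0.64, adjusted p = 0.000913). Dach2, a corepressor, fell from 2.59 ± 0.653 to 0.714 ± 0.344 CPM (log2 fold change -1.85, adjusted p = 0.00732), and Rxrg, a retinoid X receptor of muscle, from 46.4 ± 3.86 to 31.1 ± 4.02 CPM (log2 fold change -0.58, adjusted p = 0.00423).

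Several genes of ubiquitin ligase adaptors fell. Of 268 tested ubiquitin ligase components, 7 were called higher and 8 lower (7 to 19 called with 1 library left out), and 6 of the latter were stable. Of these, 5 were genes of the Asb family, whose ankyrin repeats bring substrates to cullin 5 ligases. The family was counted after these values were seen: of its 16 genes tested, 5 were called lower and 0 higher, and the log2 fold changes of the other 11 ran from -0.25 to 0.11. Asb5 fell from 114 ± 9.76 to 68.6 ± 7.9 CPM (log2 fold change -0.74, adjusted p = 0.00118) and Asb14 from 64.2 ± 2.45 to 42.6 ± 6.56 CPM (log2 fold change -0.59, adjusted p = 0.00389). Asb10 (log2 fold change -0.53, adjusted p = 0.00484), Asb4 (log2 fold change -0.50, adjusted p = 0.00899) and Asb18 (log2 fold change -0.39, adjusted p = 0.0151), outside the naming rule, fell as well, and Asb5 had no call in the fit of all 18 libraries (adjusted p = 0.0651). Rnf126, a RING ligase, fell from 61.3 ± 3.55 to 39.5 ± 5.84 CPM (log2 fold change -0.63, adjusted p = 0.00275). Fbxl22, an F-box protein of the muscle Z-disc, rose from 3.12 ± 0.638 to 6.03 ± 1.42 CPM (log2 fold change 0.95, adjusted p = 0.0105), but the abundant Herc1 overlaps it on the other strand.

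Of the immune surface genes, Ptprc rose and Cd28 fell as stable calls. Of 137 tested, 105 had a positive log2 fold change, with a median of 0.23 beside 0.02 over all genes, and 6 were called higher and 1 lower (3 to 20 called with 1 library left out), or 5.11%. Ptprc (CD45), carried by all leukocytes, lay at 3.19, 3.17, 2.85, 3.89 and 4.49 CPM in controls and 5.85, 7.14, 7.87 and 7.11 CPM in knockouts (adjusted p = 0.00329 for a log2 fold change of 0.99, SE 0.15). Its groups did not overlap. Macrophage markers were positive in 11 of 12, with a median of 0.64, or 0.29 without knockout 7, and fibroblast markers in 10 of 10, with a median of 0.24, or 0.06 without it. Of the macrophage markers only the integrin gene Itgam was called (log2 fold change 0.69, adjusted p = 0.0335), and leaving out any of controls 1, 4, 5 and 8 or knockouts 6 and 7 ended that call (0.0556 to 0.0916). No macrophage marker was at 0 in all libraries. In bulk tissue more cells of a type and more RNA per cell cannot be told apart, and the part of immune cells in the changes of Ptprc, Ccr2 and Itgav was not tested.

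Against that direction, Cd28, the co-stimulatory receptor of T cells, had the lowest adjusted p of any gene that fell. It lay at 4.5, 3.81, 4.5, 5.01 and 4.7 CPM in controls and 0.573, 0.669, 1.08 and 0.926 CPM in knockouts (adjusted p = 3.12e-05 for a log2 fold change of -2.47, SE 0.20), and each knockout was far below each control. Of 12 lymphocyte markers, 2 passed the filter. All 12 together summed to 1.22 to 2.81 CPM in controls and 2.06 to 5.79 CPM in knockouts. This sum did not fall with Cd28, and in every control it was below the level of Cd28 alone. Which cells carried the Cd28 reads was not tested. Ighg2c, an immunoglobulin heavy chain constant gene of plasma cells, lay at 0.315, 0.644, 0.461, 0.146 and 0.394 CPM in controls and 2.46, 3.09, 2.16 and 1.69 CPM in knockouts (adjusted p = 0.00133 for a log2 fold change of 2.58, SE 0.32).

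Marker lists of the other cells of muscle gave few calls. Slow-muscle genes were positive in 1 of 10, with a median of -0.62 and sums of 966 to 1475 CPM in controls and 511 to 994 CPM in knockouts, lowest in knockout 9. Of them only Myl2, the slow myosin light chain, was called (log2 fold change -0.95, adjusted p = 0.0113), not so without knockout 7 (0.0588). Adipocyte markers were positive in 0 of 8, endothelial markers in 7 of 10, tendon markers in 4 of 7 and smooth muscle markers in 4 of 8, with 0 called. Satellite cell markers were positive in 7 of 8, and Pax7, the factor of muscle stem cells, was called (log2 fold change 0.85, adjusted p = 0.0219), though its groups overlapped and leaving out any of controls 1, 4 and 5 or knockouts 6, 7 and 9 ended the call (0.0512 to 0.0775). Of S1P and its substrates, 16 tested genes, only Srebf1 was called, from 44.5 ± 6.3 to 29.5 ± 4.46 CPM (log2 fold change -0.59, adjusted p = 0.0182), a call that ended on leaving out control 5, knockout 6 or knockout 7 (0.0518 to 0.0636). Rai1 overlaps Srebf1 on the other strand.

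Non-coding genes gave few calls. Of 1193 tested long non-coding RNAs, 8 were called higher and 4 lower (3 to 23 called with 1 library left out), or 1.01% beside 3.78% over all genes. Their log2 fold change was positive in 817, beside 8771 of 16393 over all genes. The median was 0.15 (0.04 to 0.26 with 1 library left out), beside 0.02 over all genes. Only 3 were stable (0.251% beside 0.994%), all of them higher. Neither the called nor the stable share was matched for level, and genes with few reads are harder to call. Gm13943 (chr2:77314751-77317035) lay at 2.28, 2.3, 1.14, 1.43 and 2.17 CPM in controls and 4.2, 6.32, 6.45 and 6.41 CPM in knockouts (adjusted p = 0.00152 for a log2 fold change of 1.64, SE 0.21), with no overlap and with knockout 2 below the other knockouts. The protein-coding gene next to it among stable calls, Zfp385b, 93.6 kb away, rose as well (log2 fold change 0.95). Gm5083 and C130080G10Rik were below the level for naming and were chosen after their values were seen. Gm5083 had no count in controls and lay at 0.339, 0.475, 0.675 and 0.419 CPM in knockouts, at least 34.6-fold higher by the floor used for Sox14 (adjusted p = 0.00213). C130080G10Rik lay at 0.0983, 0.421, 0.135, 0.195 and 0.0394 CPM in controls and 1.57, 1.42, 1.6 and 1.76 CPM in knockouts (adjusted p = 0.00168 for a log2 fold change of 3.19, SE 0.43).

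C130080G10Rik (chr2:114054335-114064868) lies beside Actc1 (chr2:114047282-114053548), the cardiac actin gene that skeletal muscle expresses before birth. Actc1 was at 88.9, 269, 90.7, 147 and 93.4 CPM in controls and 568, 1016, 868 and 728 CPM in knockouts (adjusted p = 0.0218 for a log2 fold change of 2.53, SE 0.40). The groups did not overlap, but leaving out any of controls 1 and 5 or knockouts 6 and 7 ended the call (0.0516 to 0.0650), and reads of Actc1 can be shared with the other actins. Of 28 long non-coding RNAs in a list written by name, 1 was called, Rian, an imprinted RNA of the Dlk1-Dio3 region (log2 fold change 0.64, adjusted p = 0.0253), whose call ended on leaving out any of controls 4 and 5 or knockouts 6 and 7 (0.0599 to 0.0791).

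H19, an imprinted RNA that muscle makes before birth and while it regenerates, and Igf2, the growth factor gene beside it, were chosen after their values were seen and were not called. H19 lay at 418, 374, 442, 461 and 434 CPM in controls and 523, 1363, 2466 and 1054 CPM in knockouts (adjusted p = 0.0659 for a log2 fold change of 1.67, SE 0.39). Igf2 lay at 53.7, 41.1, 54.5, 53.3 and 39.2 CPM in controls and 69.4, 238, 583 and 126 CPM in knockouts (adjusted p = 0.0788 for a log2 fold change of 2.39, SE 0.59). In both the groups did not overlap, knockout 7 was the highest and knockout 2 the lowest of the knockouts. Without knockout 2 both were past the threshold (adjusted p = 0.00698 for H19 and 0.0256 for Igf2), and without knockout 7 neither was, at log2 fold changes of 1.20 (adjusted p = 0.103) and 1.58 (0.116). DESeq2 (0.00113 and 0.0021), limma voom (0.0286 and 0.0397) and the fit of all 18 libraries (0.00793 and 0.0266) called both. Of 1067 pseudogenes, 0 were called higher and 4 lower (0 to 8 called with 1 library left out), among them Amd-ps3 and Amd-ps4, copies of the gene of S-adenosylmethionine decarboxylase. Amd1 and Amd2, chosen after values were seen, are near-identical in sequence to these copies, and reads may be split among them. From controls to knockouts Amd1 went from 824 ± 85.8 to 457 ± 132 CPM without a call (log2 fold change -0.85, adjusted p = 0.052). It was called with DESeq2, limma voom (0.0205), RLE scaling (0.0484) and a minimum count of 50 (0.0446), when all 18 libraries were fitted (0.0151), and on leaving out knockout 7 (0.00147) or knockout 9 (0.0485). Amd2 fell from 11.8 ± 1.53 to 5.88 ± 2.21 CPM (log2 fold change -0.999, adjusted p = 0.0484), a call that ended on leaving out any control or knockout 2 or 6 (0.0623 to 0.148), with upper-quartile scaling (0.0574) and without a filter (0.127). Of 162 small RNA genes 1 was called, which this kind of library measures poorly.

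Called genes lay on all autosomes and on X. The share called ran from 2.79% on chromosome 8 to 5.98% on chromosome 16, with 0 of 8 genes tested on Y and 0 of 19 mitochondrial genes. Among stable calls, pairs of neighbours included Khk, a fructose kinase gene, and Cgref1, 1.9 kb apart and both higher, Tceal5 and Bex1 on X, 10.1 kb apart and both lower, and Mrln and Ccdc6, 11.5 kb apart and both lower. Pairs also moved apart, such as Maats1, higher, and Timmdc1, lower, within 156 kb. These pairs are examples, and how often neighbours over all tested genes move together was not counted.

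The same contrast in the soleus gave few calls. Soleus and gastrocnemius libraries are separate samples, and no label says which come from the same mouse. In the soleus 10 of 18087 genes were called (0.0553%). Of the stable genes that rose in the gastrocnemius, 75 were tested in the soleus, where 69 were positive, with a median of 0.45, and 5 were called. Of those that fell, 82 were tested, 70 were negative, with a median of -0.14, and 0 were called. Over all 16178 genes tested in both muscles, 8075 were positive and 8103 negative in the soleus, with a median of -0.00023, and 9 were called. Among the named genes, Sox14 (soleus log2 fold change 9.40), Maats1, a gene of motile cilia (3.76), Ank2 (0.53) and Mfhas1, a leucine-rich repeat protein (0.83), were called higher there too. In the gastrocnemius Maats1 rose from 0.0401 ± 0.0496 to 0.919 ± 0.339 CPM and Mfhas1 from 6.8 ± 1.02 to 14 ± 2.13 CPM. Maats1 rested on few reads, and its log2 fold change of 4.40 became 5.21 without control 5.

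**Figure D5:**
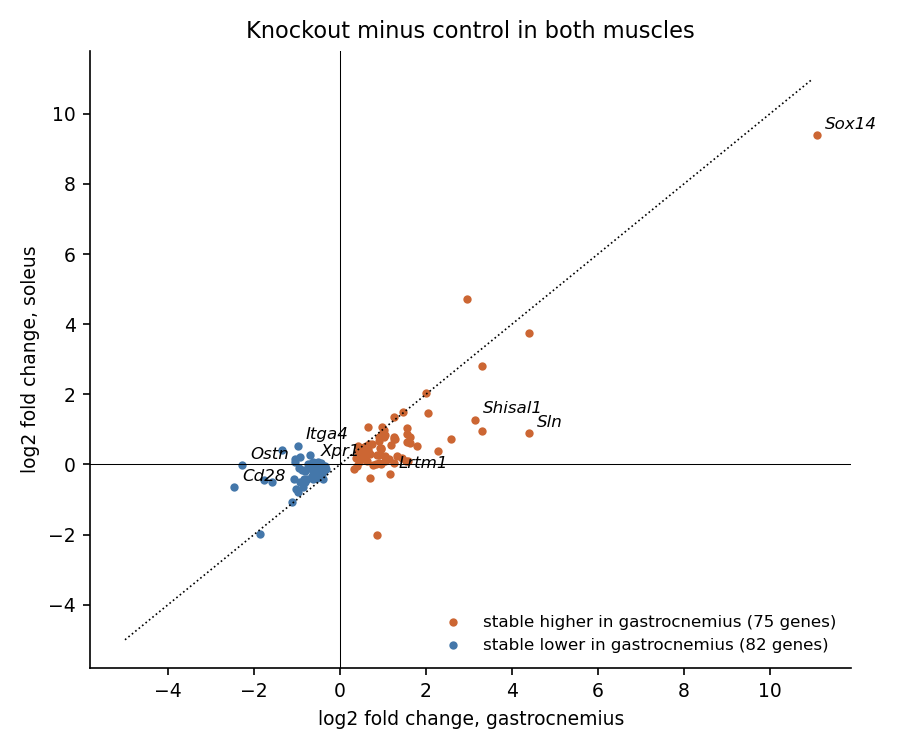
Log2 fold change (knockout minus control) in the soleus against that in the gastrocnemius for the stable calls of the gastrocnemius that were tested in both muscles (75 higher, 82 lower). The dotted line marks equal change, and most points lie between it and the horizontal axis, with Sox14 near the line and Ostn and Lrtm1 near the axis.

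The knockout effect in the soleus less that in the gastrocnemius was called for 13 of 18494 genes in a fit of all 18 libraries (0.0703%; 2 to 23 with 1 library left out), and 12 of the 13 are stable calls of the gastrocnemius, the contrast that also enters the difference. Only Cd28 and Lrtm1 kept this call in all 18 fits without 1 library. Cd28 fell in the gastrocnemius and had a soleus log2 fold change of -0.64 (difference 1.82, SE 0.27, adjusted p = 0.0133). Lrtm1 rose in the gastrocnemius and had -0.27 in the soleus (difference -1.44, SE 0.21, adjusted p = 0.0146). Ostn, with -0.01 in the soleus (difference 2.26, adjusted p = 0.038), and Itga4, with 0.54 (difference 1.51, adjusted p = 0.033), differed with all libraries and lost the call in 17 and 11 of the 18 left-out fits. For Sln (0.0847), Chrna1 (0.133) and Musk (0.512) the adjusted p of the difference missed the threshold.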

How the data were processed

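Per the labels' protocols, RNA from snap-frozen muscle was extracted with RNA STAT-60, treated with DNase and depleted of ribosomal RNA (KAPA RiboErase). The submitters' processing notes name the build GRCm38 and featureCounts 1.4.6-p5 (Subread), STAR 2.5.1a and bcl2fastq as tools. The sources used here give no strand setting, annotation release or rule on multimapped reads. The authors deposited a read count per Ensembl gene for each library, without normalization. The deposited CPM values are those counts scaled to the library's total, and the deposited RPKM values are those CPM per kilobase of the listed length, and both were used only to check this (largest gaps 4.95e-10 and 4.66e-10). Symbols and biotypes came from the GENCODE mouse annotation of GRCm38, and 97.5% of 41388 genes took a symbol. No line named anything but a gene.

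The counts of the 9 libraries were tested by edgeR's robust quasi-likelihood fit (edgeR 4.0.16, R 4.3.3) after TMM scaling, for genes kept by filterByExpr (minimum count 10, minimum total 15), with Benjamini-Hochberg adjustment over them and a threshold of 0.05. Levels in CPM use the TMM-scaled totals and are mean ± SD (n = 5 controls, n = 4 knockouts), and every adjusted p is from edgeR unless another tool is named. Lists of values follow the order controls 1, 3, 4, 5 and 8 and knockouts 2, 6, 7 and 9. The difference between muscles was a contrast over 4 groups and 18 libraries. A gene with no count in a group was set to 3 counts over that group for a fold. A single count was worth 0.0175 to 0.0271 CPM, and such floors hold counting error alone, as reads carry no molecular identifiers. No pair of libraries in a group was near sampling noise (chi-square per gene 19.6 at the least). Alternatives were DESeq2 1.42.0, limma 3.58.1 (voom), RLE and upper-quartile scaling, no filter on low counts, a minimum count of 50, a fit of all 18 libraries, and leaving out each library. The fit was tested on simulated data with known changes.

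Named by rule were Mbtps1, the 10 highest and 10 lowest stable calls with a mean log2 CPM of at least 0, up to 3 such calls each way per class of symbols, up to 6 for long non-coding RNAs, and called members of the marker lists. Classes are patterns of gene symbols or biotypes. The comparison, the classes and the lists were chosen with earlier results of these data known. Some genes are not reported here.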

Additional observations from a re-analysis of the deposited data

Results flagged for a closer look

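Of 230 groups of values examined, 11 had 1 library far from the others of its group, and chance alone gives about 1 in 20 groups. Among knockouts, library 2 was low for Rgs2 (4.90 CPM, others 8.66 to 9.13) and for Gm13943 (4.20 CPM, others 6.32 to 6.45) and high for Calm3 (323 CPM, others 297 to 299). Library 7 was low for Ostn (1.51 CPM, others 2.74 to 2.93) and for Scn4a (572 CPM, others 674 to 681). Among controls, library 4 was high for Slc38a4 (157 CPM, others 146 to 149) and Cgref1 (1.57 CPM, others 0.851 to 1.01) and low for Asb14 (59.9 CPM, others 64.6 to 65.7) and Cacnb4 (0.786 CPM, others 1.08 to 1.19). Control 3 was high for Hoxc8 (2.97 CPM, others 1.52 to 1.91), and control 5 was low for Alx4 (0.535 CPM, others 0.894 to 0.945).

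The effect of the knockout differed between the muscles, by edgeR's test of the difference over all 18 libraries, for 13 genes, given here as the soleus effect minus the gastrocnemius effect on the log2 scale. The difference was positive for Cd28 (1.82, adjusted p = 0.0133), Xpr1 (0.69, 0.0186), Cbfb (0.70, 0.0186), Bex1 (1.12, 0.0294), C2cd4c (2.61, 0.0294), Itga4 (1.51, 0.0330), Slc4a10 (6.59, 0.0344), Otog (2.28, 0.0344), Ttll7 (0.85, 0.0344), Pcx (0.57, 0.0380) and Ostn (2.26, 0.0380). It was negative for Lrtm1 (-1.44, 0.0146) and Mrvi1 (-0.83, 0.0344). Slc4a10 had no count in soleus controls and 0.0855 CPM in soleus knockouts, so that its difference depends on the prior count and is no measure of size. C2cd4c (0.145 and 0.159 CPM) and Otog (0.295 and 0.609 CPM) were also low in both soleus groups.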

How the results depend on the processing

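No paired analysis was possible because each library carries its own replicate number, shared with no library of the other group. Of the 619 called genes, DESeq2 made 1235 (588 higher, 647 lower), and leaving out 1 library gave 206 to 1080 in all, 96 to 584 higher and 100 to 496 lower. The other settings stayed within 1.5 times: limma voom 577, RLE scaling 642, upper-quartile scaling 554, no filter on low counts 878, a minimum count of 50 616 and the fit of all 18 libraries 660. The 13 genes that differed between muscles became 7 with limma voom and 2 to 23 with 1 library left out, from 2 without soleus control 37 to 23 without gastrocnemius knockout 2. Of the 163 stable calls, 163 were called with RLE and upper-quartile scaling and without a filter, 162 with DESeq2, which gave Gm5083 no adjusted p, 162 with limma voom, which lost Stac2, 154 with the minimum count of 50, where the other 9 were not tested, and 150 in the fit of all 18 libraries. No named gene that was called changed sign under any setting run. The fold of Sox14 depends on the prior count (log2 10.44 with DESeq2, 9.00 with limma voom), which is why a bound is given. C130080G10Rik moved to 3.78 without control 3. No Cre-only group, 1 muscle sample per library and counts over whole genes limit what these calls can tell, and genes at under about 1 CPM rest on few reads.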

Other observations

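Genes outside the classes, chosen after their values were seen unless stated, also moved. Car3, carbonic anhydrase III, an abundant enzyme of muscle cytosol, lay at 1042, 1093, 1203, 1079 and 1306 CPM in controls and 1463, 1726, 1860.2 and 2057 CPM in knockouts (adjusted p = 0.00364 for a log2 fold change of 0.63, SE 0.10), and it had the highest level of any stable call that rose. Mt3, a metallothionein that binds zinc, rose from 1.99 ± 0.573 to 5.74 ± 1.98 CPM (log2 fold change 1.53, adjusted p = 0.00612). Ucp1, the uncoupling protein of brown fat, rose from 0.131 ± 0.109 to 1.02 ± 0.142 CPM (log2 fold change 2.91, adjusted p = 0.00732). The 8 adipocyte markers, none of them positive, summed to 516 to 710 CPM in controls and 398 to 661 CPM in knockouts. At these sums a small change in fat cells would not show, and the source of the Ucp1 reads was not tested. Ttll7, an enzyme that adds glutamate chains to tubulin, fell from 245 ± 5.82 to 126 ± 29.3 CPM (log2 fold change -0.96, adjusted p = 0.00433), and Katnal2, a relative of the microtubule-severing enzyme katanin, which the rule named, rose from 0.488 ± 0.198 to 1.69 ± 0.274 CPM (log2 fold change 1.78, adjusted p = 0.0056). Pcx, pyruvate carboxylase, fell from 91.7 ± 5.68 to 64.6 ± 8.87 CPM (log2 fold change -0.50, adjusted p = 0.00811), and Mrvi1, a target of cGMP-dependent kinase at the IP3 receptor, rose from 8.64 ± 1.27 to 15.3 ± 1.81 CPM (log2 fold change 0.83, adjusted p = 0.00239).

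Of the other genes that fell at low or moderate levels, Ankrd6 and Exph5 were named by rule and the rest were chosen after their values were seen. Ankrd6, which acts in Wnt and planar polarity signalling, fell from 6.5 ± 1.6 to 3.08 ± 0.489 CPM (log2 fold change -1.07, adjusted p = 0.00732), and Exph5, an effector of Rab27 in vesicle traffic, from 1.73 ± 0.35 to 0.575 ± 0.207 CPM (log2 fold change -1.57, adjusted p = 0.00801). Of the neighbours Tceal5 and Bex1 on X, Tceal5 fell from 20.004 ± 2.85 to 12.3 ± 1.87 CPM (log2 fold change -0.70, adjusted p = 0.00727) and Bex1 from 5.37 ± 0.672 to 2.83 ± 0.163 CPM (log2 fold change -0.92, adjusted p = 0.00275), though Tceal7 overlaps Bex1 on the other strand. C2cd4c fell from 1.4 ± 0.111 to 0.253 ± 0.0881 CPM (log2 fold change -2.47, adjusted p = 0.00118).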
